A study of Mus musculus with 9 samples.

Results

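The genes described here are those of the interleukin-1 system and interleukin-6: the ligands Il1a and Il1b, the receptor antagonist Il1rn, the decoy receptor Il1r2, the accessory chain Il1rap, and Il6. They were taken by symbol, and all 6 were found among the 18042 genes of the deposited table. Interleukin-1 and interleukin-6 are inflammatory cytokines that macrophages make when they sense bacterial products. IL-1 alpha and IL-1 beta are alternative ligands of one receptor, which signals only once it has joined an accessory chain. A receptor antagonist competes with them for the receptor, and a decoy receptor without a signalling tail binds them and passes nothing on. IL-6 is a typical product of IL-1 receptor and Toll-like receptor signalling, and reaches cells through its own receptor and STAT3.

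RNA was sequenced from tumour macrophages gated on CD11b and F4/80. The tumours had grown under the skin of wild-type female C57BL/6 mice, aged 6 to 8 weeks when they received cells of the mouse colon carcinoma line MC38. On day 9 the mice were allotted at random to intratumoral IN@OMVs, OMVs or solvent (Control, labelled both solvent and PBS). Both vesicle groups received 12.5 µg of vesicle protein for each mouse. OMVs is the usual short form for outer membrane vesicles shed by bacteria, but neither it nor IN is spelled out in the labels. Libraries are called biological replicates, with the harvest time and the number of mice behind each not given. Each group held 3 libraries, numbered 1 to 3, of 16813230 to 17288322 expected counts (estimated reads per gene).

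Levels are given as CPM, reads of a gene scaled to library size with TMM factors, and changes as log2 fold changes ± SE of an edgeR quasi-likelihood fit to all 9 libraries, called at an adjusted p under 0.05. The macrophage genes Csf1r, Adgre1 (F4/80) and Itgam (CD11b) lay at 1260 to 1834, 384 to 617 and 1080 to 1896 CPM. None of the 12 macrophage markers was called by edgeR in any comparison. At an unadjusted p under 0.05 there were 4 in IN@OMVs against Control (DESeq2 and limma-voom called 1 each), 2 in IN@OMVs against OMVs (DESeq2 1, limma-voom 0) and 0 in OMVs against Control (0 in both tools). Itgam was the nearest (-0.50 ± 0.13 in IN@OMVs against Control, adjusted p = 0.0512). Library IN@OMVs 1 stood apart in its fibroblast markers, which summed to 1503 CPM there and to 3454 to 5861 CPM in the other 8 libraries. Markers of T cells summed to 236 to 278.5 CPM in the 3 libraries numbered 1 and to 86.9 to 160 CPM in the others.

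In IN@OMVs macrophages the transcripts of the IL-1 ligands, of the decoy receptor, of the accessory chain and of IL-6 were lower than in Control, while that of the receptor antagonist did not pass the test. The fall was deepest for Il6 (a fold of 0.0863), followed by Il1b (0.276) and Il1r2 (0.283), Il1a (0.363) and Il1rap (0.603). The count was 5 of 6 genes lower, where edgeR called 3.24% of the 13090 genes tested lower and 6.55% in either direction. In OMVs against Control none of the 6 genes passed the threshold in edgeR, where 0.42% of all genes were called and 0.122% were called lower. At an unadjusted p under 0.05 there were 2 such genes, Il1r2 lower and Il1rn higher. DESeq2 called 1, Il1r2, and limma-voom 0. Set directly against OMVs, IN@OMVs had 4 of the 6 genes lower, Il6, Il1b, Il1a and Il1r2, where 1.75% of genes were called lower and 2.85% in either direction. That count was 6 in DESeq2, with no filter on low counts or without IN@OMVs 1, 5 with upper quartile factors, 4 in limma-voom, and 3 without IN@OMVs 3, OMVs 2, OMVs 3 or Control 2. The libraries of all 6 genes lay without overlap below those of Control in IN@OMVs (12.5% of all genes did so) and below those of OMVs (8.72%), and in OMVs those of 2 genes, Il1r2 and Il1rap, lay below Control (9.89%). Both comparisons with Control share its 3 libraries. Expected counts of all 6 genes were whole numbers in the 9 libraries.

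**Figure D1:**
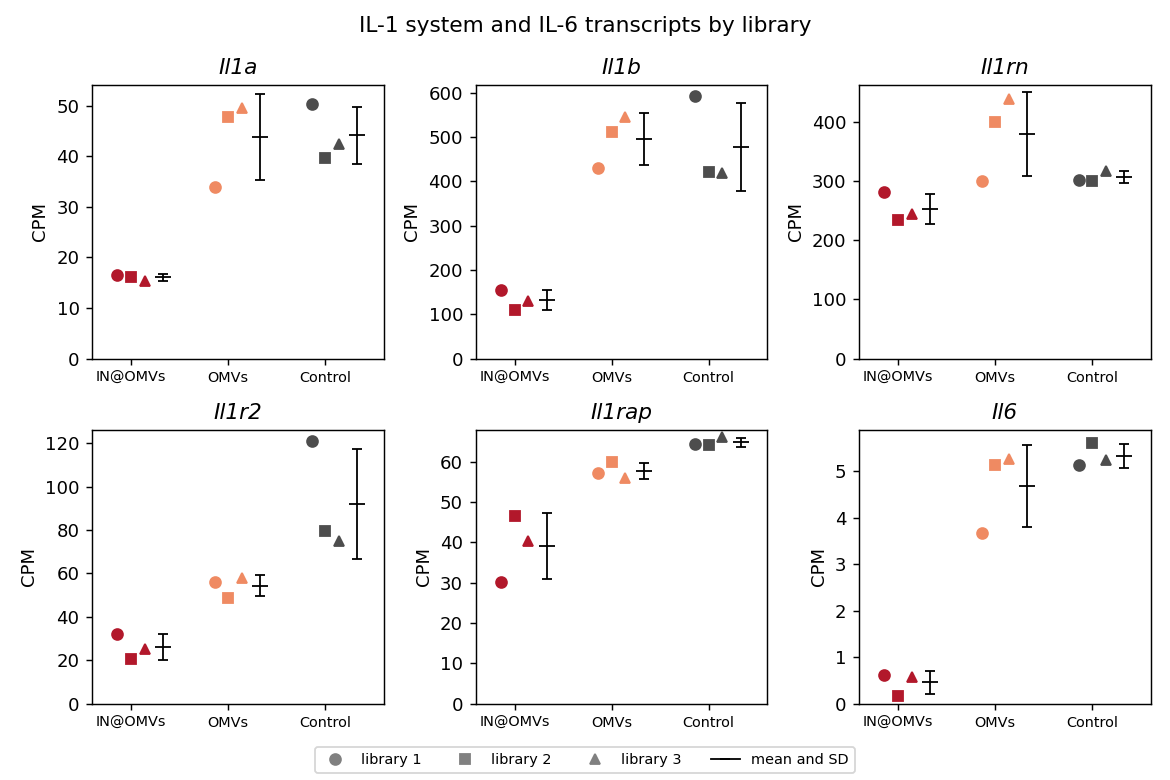
Levels of the 6 genes in CPM, with 1 panel per gene and a linear axis from 0. Points are libraries 1 to 3 of IN@OMVs, OMVs and Control, and bars give the mean and SD; IN@OMVs lies below both other groups in every panel, by the most for Il6 (0.171 to 0.616 CPM against 3.68 to 5.61 CPM in the 6 OMVs and Control libraries).

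Il1b encodes the ligand that needs cleavage by an inflammasome protease before it acts. Its level was 155, 110.0 and 129.7 CPM in IN@OMVs libraries 1, 2 and 3, against 429.9, 511 and 544 CPM in OMVs and 593, 420.5 and 418 CPM in Control. The IN@OMVs libraries were all below the other 6, and the OMVs and Control libraries overlapped. Il1b averaged 132 ± 22.5 CPM in IN@OMVs and 477 ± 100.3 CPM in Control (SD, n = 3 each), a log2 fold change of -1.86 ± 0.17 (adjusted p = 0.000488). Against the OMVs mean of 495 ± 58.8 CPM the change was -1.91 ± 0.17 (adjusted p = 0.000838). For OMVs against Control it was 0.05 ± 0.17 (adjusted p = 0.999), with a sign that turned when single libraries were left out.

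Il1a encodes the ligand that is active without that cleavage and that dying cells release. IN@OMVs libraries held 16.6, 16.2 and 15.3 CPM, OMVs libraries 34.0, 47.8 and 49.5 CPM and Control libraries 50.3, 39.6 and 42.4 CPM. The spread within IN@OMVs was small (16.0 ± 0.646 CPM), and its highest library was less than the lowest of either other group. The log2 fold change was -1.46 ± 0.15 against Control (adjusted p = 0.000678) and -1.45 ± 0.15 against OMVs (adjusted p = 0.00152). OMVs differed from Control by -0.01 ± 0.14 (adjusted p = 1.00). Il1a and Il1b are neighbouring protein-coding genes on chromosome 2 of the RefSeq annotation.

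Il1rn, whose product blocks the IL-1 receptor, moved least of the 6 genes in IN@OMVs against Control. It stood at 281, 234 and 244 CPM in IN@OMVs, 300.5, 400.2 and 439 CPM in OMVs and 301, 300.3 and 318 CPM in Control. The IN@OMVs libraries were the 3 lowest of the 9, and 2 of the OMVs libraries were above all Control libraries. Against Control the change was -0.28 ± 0.13 (adjusted p = 0.285), and against OMVs it was -0.59 ± 0.13 (adjusted p = 0.051), just short of the threshold. OMVs against Control gave 0.31 ± 0.13 (adjusted p = 0.558, unadjusted p = 0.0407). With all 9 libraries, the call for IN@OMVs against OMVs was gained in DESeq2 (adjusted p = 0.00088) and in edgeR with upper quartile factors (adjusted p = 0.039) or no filter on low counts (adjusted p = 0.0483), and not in limma-voom (adjusted p = 0.058). Without all 3 libraries numbered 1 Il1rn was lower in IN@OMVs than in Control (-0.38 ± 0.07, adjusted p = 0.00608), lower than in OMVs (-0.81 ± 0.07, adjusted p = 5.37e-05) and higher in OMVs than in Control (0.44 ± 0.07, adjusted p = 0.00842). Leaving out OMVs 1 alone (-0.73 ± 0.09, adjusted p = 0.00776) or IN@OMVs 1 alone (-0.67 ± 0.13, adjusted p = 0.0132) also gave a call for IN@OMVs against OMVs.

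In read number, the antagonist exceeded the IL-1 beta ligand in IN@OMVs and was below it in both other groups. For each Il1b read there were 1.82, 2.12 and 1.88 Il1rn reads in IN@OMVs, against 0.699, 0.784 and 0.806 reads in OMVs and 0.508, 0.714 and 0.76 reads in Control. On the log2 scale the ratio averaged 0.95 ± 0.12 for IN@OMVs, -0.39 ± 0.11 for OMVs and -0.62 ± 0.31 for Control (SD, n = 3 each). The difference was 1.57 between IN@OMVs and Control, 1.35 between IN@OMVs and OMVs and 0.23 between OMVs and Control. No test was run on this ratio of described genes. With Il1a added to the ligand the averages were 0.78 ± 0.09 for IN@OMVs, -0.51 ± 0.10 for OMVs and -0.75 ± 0.30 for Control.

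**Figure D2:**
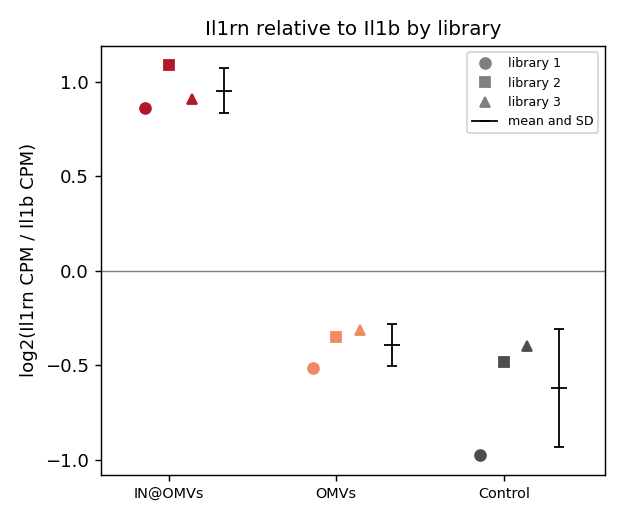
Log2 ratio of Il1rn CPM to Il1b CPM in each library, with the mean and SD of each group; 0 marks equal read numbers. The IN@OMVs libraries lie at 0.86 to 1.09, and the 6 OMVs and Control libraries lie between -0.98 and -0.31.

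Il1r2 encodes the decoy receptor, and was the gene of the 6 with the largest difference between OMVs and Control. It read 32.3, 20.6 and 25.1 CPM in IN@OMVs, 56.2, 48.9 and 57.8 CPM in OMVs and 121, 79.4 and 75.0 CPM in Control. The 3 groups did not overlap, with IN@OMVs lowest and Control highest. IN@OMVs against Control gave -1.82 ± 0.21 (adjusted p = 0.00121). For OMVs against Control the change was -0.76 ± 0.20 and did not pass (adjusted p = 0.24, unadjusted p = 0.00451). It passed in DESeq2 (adjusted p = 0.0327), and in edgeR without IN@OMVs 1 (adjusted p = 0.0491) or without the 3 libraries numbered 1 (-0.53 ± 0.10, adjusted p = 0.017).

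Against OMVs, IN@OMVs had Il1r2 lower by -1.06 ± 0.21 (adjusted p = 0.0312). That call ended without IN@OMVs 2 (adjusted p = 0.0848), IN@OMVs 3 (0.119), OMVs 1 (0.112), OMVs 2 (0.0778), OMVs 3 (0.109) or Control 2 (0.0514), with log2 changes of -1.13 to -0.92 in these 6 fits. Il1r2 lies next to Il1r1, the gene of the signalling receptor, in a run of receptor genes on chromosome 1 that goes on with Il1rl2, Il1rl1, Il18r1 and Il18rap. None of these 5 neighbours was called in any comparison by edgeR, their smallest adjusted p being 0.262. Il1r1 was at 7.88, 22.1 and 22.9 CPM in IN@OMVs, 28.7, 32.0 and 26.2 CPM in OMVs and 25.3, 33.4 and 28.3 CPM in Control (-0.72 ± 0.32 for IN@OMVs against Control, adjusted p = 0.262). Its lowest value fell in IN@OMVs 1, the library low in fibroblast markers, and the part of other cells in Il1r1 was not tested.

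Il1rap encodes the accessory chain without which the bound receptor does not signal, and which the receptors of IL-33 and IL-36 also use. Its level was 30.2, 46.5 and 40.5 CPM in IN@OMVs, 57.2, 59.9 and 56.1 CPM in OMVs and 64.3, 64.1 and 66.1 CPM in Control. The groups did not overlap, and IN@OMVs 1 was the lowest library. The change was -0.73 ± 0.13 in IN@OMVs against Control (adjusted p = 0.0104) and -0.58 without IN@OMVs 1, still called. Against OMVs it was -0.56 ± 0.13 and missed the threshold (adjusted p = 0.0554), whereas it was called in DESeq2 (adjusted p = 0.0031) and in edgeR with no filter on low counts (adjusted p = 0.0495). It passed in edgeR without IN@OMVs 1 (-0.41 ± 0.07, adjusted p = 0.00584), without IN@OMVs 2 (-0.71 ± 0.11, adjusted p = 0.0198) or without the 3 libraries numbered 1 (-0.42 ± 0.08, adjusted p = 0.011). OMVs against Control gave -0.17 ± 0.13 (adjusted p = 0.844).

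Il6 was the scarcest of the 6. It had 10, 3 and 10 expected counts in IN@OMVs, against 64, 88 and 88 counts in OMVs and 86, 96 and 91 counts in Control. Scaled, these were 0.616, 0.171 and 0.582 CPM in IN@OMVs, against 3.68, 5.13 and 5.26 CPM in OMVs and 5.13, 5.61 and 5.24 CPM in Control. Every IN@OMVs library was far below every other library, at a depth where it rested on few reads. The log2 fold change was -3.53 ± 0.34 against Control (adjusted p = 0.000564) and -3.35 ± 0.34 against OMVs (adjusted p = 0.00152). Over the omissions of single libraries it ranged from -3.81 to -3.14 against Control and from -3.62 to -2.95 against OMVs, called each time. OMVs differed from Control by -0.18 ± 0.27 (adjusted p = 0.971).

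**Figure D3:**
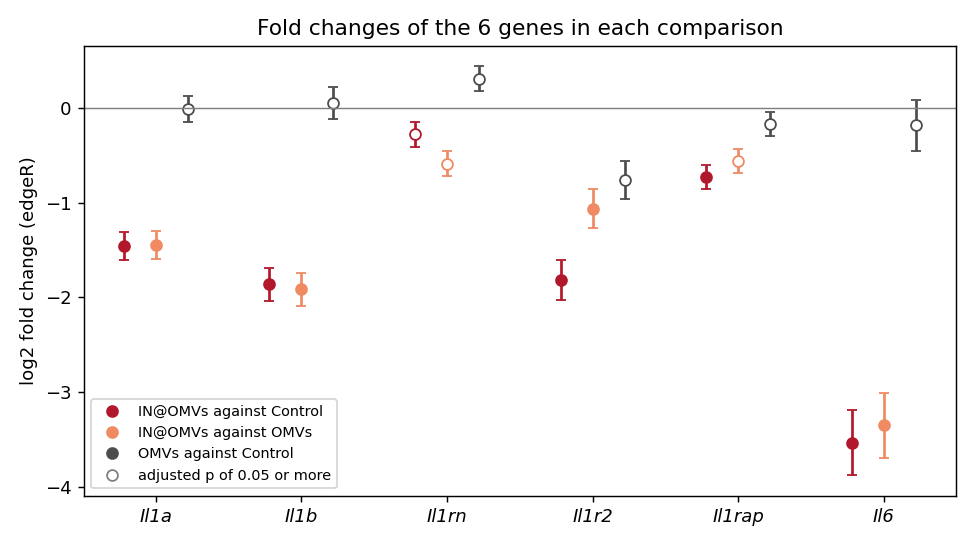
Log2 fold changes of the 6 genes from edgeR with their SE, coloured by comparison; filled points passed an adjusted p of 0.05 and open points did not. Both comparisons that involve IN@OMVs lie below 0 for all 6 genes, and OMVs against Control lies between -0.76 and 0.31.

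Because Il6 and Il1b fell together in IN@OMVs, the 250 bases before their RefSeq starts were searched on both strands for motifs of factors that act on both genes. Of 32851 such windows, 7.25% held the NF-kB motif, 9.56% the C/EBP motif TTGCNNAA, 6.75% the AP-1 motif TGANTCA and 7.02% the STAT motif TTCNNNGAA. Capitals mark the motifs found, none of which overlapped. The Il6 window is chr5:30012864-30013113 (plus strand) and the Il1b window chr2:129371140-129371389 (minus strand), both in GRCm38.p6, written 5′ to 3′ along the gene.
Il6: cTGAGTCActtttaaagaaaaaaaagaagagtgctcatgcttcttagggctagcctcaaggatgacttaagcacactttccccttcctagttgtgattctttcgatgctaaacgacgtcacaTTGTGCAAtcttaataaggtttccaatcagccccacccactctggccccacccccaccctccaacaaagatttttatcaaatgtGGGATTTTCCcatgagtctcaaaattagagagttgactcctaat
Il1b: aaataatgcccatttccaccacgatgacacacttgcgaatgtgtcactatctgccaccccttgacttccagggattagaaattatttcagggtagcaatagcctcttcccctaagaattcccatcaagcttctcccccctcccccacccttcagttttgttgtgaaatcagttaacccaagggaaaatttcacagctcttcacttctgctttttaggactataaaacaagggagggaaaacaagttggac

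The Il6 window held an AP-1 motif 249 to 243 bases before the start, a C/EBP motif 128 to 121 bases before it and an NF-kB motif 44 to 35 bases before it. The Il1b window held none of these letters. Of the other genes, Il1a had an AP-1 motif 12 to 6 bases before its start, Il1r2 a STAT motif 111 to 103 bases before it, and Il1rn an AP-1 motif 141 to 135 bases before 1 of its 3 starts. The Il1rap window held none. These are matches of letters, and binding was not measured.

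To set the genes against each other, CPM were divided by the length in kilobases of the longest coding transcript in GENCODE M21. In IN@OMVs the level per kilobase (mean ± SD, n = 3) overlapped at the top between Il1rn (102 ± 10.1) and Il1b (97.0 ± 16.6). Il1r2 followed (18.3 ± 4.13), Il1rap (8.65 ± 1.82) overlapped with Il1a (8.12 ± 0.327), and Il6 came last (0.195 ± 0.106). OMVs had Il1b first (365 ± 43.3) and Il6 last (2.00 ± 0.375), in the order seen in Control. There the level per kilobase was 352 ± 74.0 for Il1b, 124 ± 3.92 for Il1rn, 64.7 ± 17.9 for Il1r2, 22.3 ± 2.81 for Il1a, 14.3 ± 0.243 for Il1rap and 2.27 ± 0.108 for Il6. With the shortest coding transcript of each gene in place of the longest, Il1rn stood above Il1b in all 3 groups, so the order of these levels depends on the isoform.

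Several markers of neutrophils and monocytes were also lower in IN@OMVs, while those of conventional dendritic cells were not. Of 10 dendritic cell markers edgeR called 2 higher and 0 lower against Control (median 0.11). Against OMVs it called 1 higher and 0 lower (median 0.34). Over all genes 6.55% and 2.85% were called in either direction. Of 14 neutrophil markers 12 could be tested, and in IN@OMVs 11 were lower than in Control (median -2.89) and 11 lower than in OMVs (median -2.71). Over all genes 3.24% and 1.75% were called lower in these comparisons. Summed neutrophil markers were 280.5, 227 and 269 CPM in IN@OMVs, 966, 765 and 1008 CPM in OMVs and 1476, 1022 and 1037 CPM in Control. Ly6g, a defining neutrophil surface marker, held 0.123, 0.114 and 0.116 CPM in IN@OMVs, 1.32, 1.81 and 2.09 CPM in OMVs and 5.25, 3.33 and 3.63 CPM in Control, and the calprotectin gene S100a8 changed by -3.75 ± 0.20 against Control (adjusted p = 2.97e-05). Both were singled out after their values were seen. Ly6g rested on few reads in IN@OMVs, its levels lying below the 0.171 CPM that 3 counts of Il6 gave in IN@OMVs 2. S100a8, S100a9, Csf3r and Mmp9 of that list are also transcribed by monocytes and macrophages.

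Monocyte markers were lower in 8 of 10 tested genes in IN@OMVs against Control (median -1.20), in 4 against OMVs and in 3 in OMVs against Control. Over all genes 3.24%, 1.75% and 0.122% were called lower there. Their sum was 1288 to 1518 CPM in IN@OMVs, 1954 to 2307 CPM in OMVs and 2742 to 3062 CPM in Control. Il1b and Il1r2 are known to be transcribed by neutrophils and monocytes as well as by macrophages. In these bulk samples fewer cells of a type and less RNA per cell cannot be told apart, and the part of neutrophils or monocytes in the change of the 6 genes was not tested. Between OMVs and Control no neutrophil marker was called by edgeR, while 3 monocyte markers were lower there. Of the neutrophil markers 5 had an unadjusted p under 0.05, 2 were called by DESeq2 and 0 by limma-voom. With the libraries' number as a block, edgeR called 1 neutrophil marker and 2 monocyte markers lower in OMVs than in Control. Without overlap, 5 of 12 neutrophil and 6 of 10 monocyte markers lay lower in OMVs than in Control, where 9.89% of all genes did so. Of the 6 genes, Il1r2 (-0.76 ± 0.20, called in DESeq2 and not in edgeR) and Il1rap lay lower without overlap there, and Il1a, Il1b, Il1rn and Il6 overlapped.

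**Figure D4:**
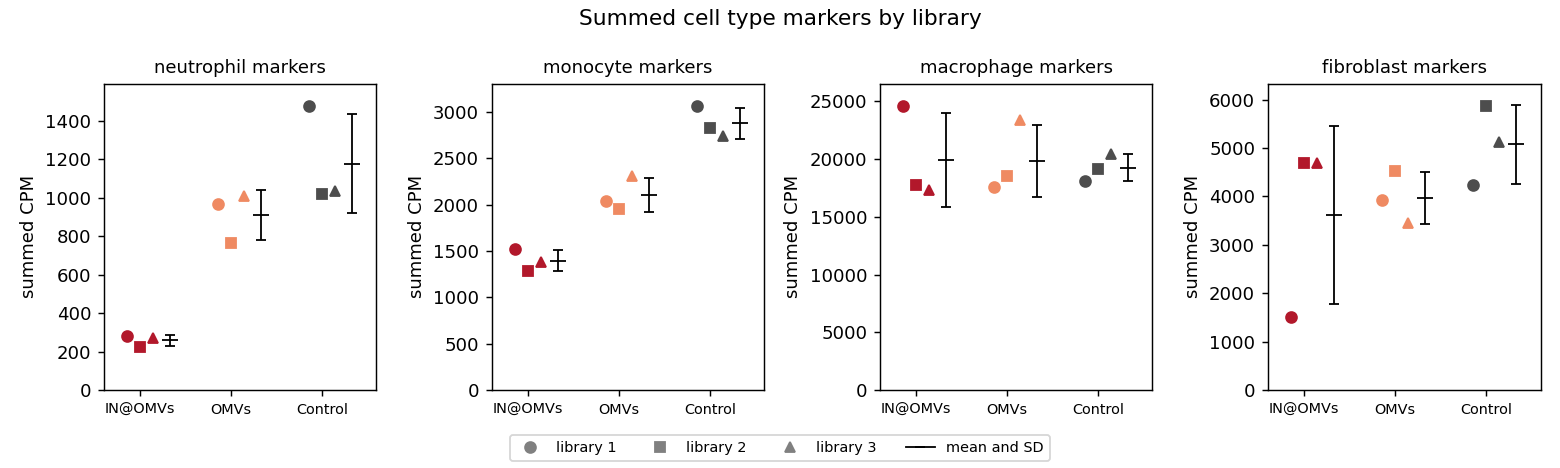
Summed CPM of neutrophil, monocyte, macrophage and fibroblast markers in each library, on linear axes from 0, with the mean and SD of each group. Neutrophil and monocyte sums are lowest in the 3 IN@OMVs libraries, macrophage sums overlap between groups (17330 to 24570 CPM), and the fibroblast sum is low in IN@OMVs 1 alone (1503 CPM).

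The genes nearest in pattern were ranked by Pearson's r of log2(CPM + 1) over the 9 libraries among 10569 genes of at least 5 CPM. Points of a group share their treatment, so these correlations mostly restate the difference between groups. Il1b was nearest to Cxcl2 (r = 0.994) and Cxcl3 (0.992), which encode neutrophil-attracting chemokines, and to Socs3 (0.991), a feedback inhibitor of IL-6 signalling. Cxcl2 averaged 155 ± 26.7 CPM in IN@OMVs, 411 ± 21.2 CPM in OMVs and 385 ± 36.2 CPM in Control, a change of -1.31 ± 0.12 in IN@OMVs against Control (adjusted p = 0.000442). Cxcl3 also came first for Il1a (0.990), ahead of Dennd11 (0.985) and the actin-binding Svil (0.983).

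Nearest to Il6 were the F-box gene Fbxl5 (0.991), the formyl peptide receptor gene Fpr1 (0.991) and the ceruloplasmin gene Cp (0.987). Fpr1, whose receptor senses bacterial peptides, averaged 8.30 ± 0.828 CPM in IN@OMVs, 39.9 ± 7.41 CPM in OMVs and 42.2 ± 4.82 CPM in Control (-2.35 ± 0.15, adjusted p = 7.15e-05). Il1r2 was nearest to Ifitm6 (0.990), Glipr2 (0.990) and the IL-6 family cytokine gene Osm (0.990), all of which read lowest in IN@OMVs and highest in Control. Il1rap was nearest to Gas7 (0.987), Micall2 (0.976) and Sh3kbp1 (0.975). For Il1rn these were Sdc4 (0.985), Gpalpp1 (0.974) and Bst1 (0.964), none of which was called in IN@OMVs against Control. Against OMVs, where Il1rn differed more, Bst1 was lower (-0.59 ± 0.11, adjusted p = 0.0225), a call lost with only the 2 groups compared and without IN@OMVs 2, IN@OMVs 3, OMVs 2, OMVs 3 or Control 3.

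The rest of the IL-1 and IL-6 pathways was read from 7 lists with 90 genes, of which 86 could be tested. In IN@OMVs against Control 2 were higher and 11 lower (15.1% called, median -0.10), beside 6.55% of all genes with a median of -0.0024. Against OMVs 1 was higher and 9 were lower (11.6%, where 2.85% of all genes were called). OMVs against Control had 0 calls in edgeR and limma-voom and 1 in DESeq2, with 11 genes at an unadjusted p under 0.05. Single libraries moved these counts: for IN@OMVs against Control the count of 13 became 26 without IN@OMVs 1 and 6 to 8 without any other IN@OMVs or any Control library. For IN@OMVs against OMVs the count of 10 became 20 without IN@OMVs 1, 5 without IN@OMVs 3 and 4 without OMVs 2 or OMVs 3.

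Among the other IL-1 family ligands, Il1f9, which encodes IL-36 gamma, was lower in IN@OMVs. It measured 6.84, 4.79 and 4.83 CPM in IN@OMVs, 15.4, 10.6 and 14.5 CPM in OMVs and 23.0, 12.5 and 13.8 CPM in Control. The IN@OMVs libraries were below all others, and OMVs overlapped with Control. The change was -1.58 ± 0.27 against Control (adjusted p = 0.00902) and -1.30 ± 0.27 against OMVs (adjusted p = 0.0378, lost without any 1 of IN@OMVs 2, IN@OMVs 3, the 3 OMVs libraries or Control 3, and in limma-voom). Counts of Il1f9 were fractional in 3 libraries. Il18, another inflammasome-processed ligand, held 19.3 to 26.0 CPM in IN@OMVs, 23.2 to 24.0 CPM in OMVs and 23.3 to 23.6 CPM in Control (-0.07 ± 0.10 against Control, adjusted p = 0.77).

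Of 7 receptors and decoys outside the 6 genes, Il18bp was the 1 called in IN@OMVs against Control, where 6.55% of all genes were called. This soluble trap for IL-18 was higher in IN@OMVs. Its level was 67.5, 53.3 and 54.0 CPM in IN@OMVs, 37.7, 40.9 and 47.3 CPM in OMVs and 29.6, 32.8 and 34.8 CPM in Control. The 3 groups did not overlap, in the opposite order to Il1r2. The change against Control was 0.85 ± 0.12 (adjusted p = 0.00334), with fractional counts in all 9 libraries. Against OMVs it was 0.47 ± 0.12 (adjusted p = 0.0731).

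The genes that mature and release IL-1 gave no call in edgeR in any comparison among 11 tested. At an unadjusted p under 0.05 there was 1 in IN@OMVs against Control, 1 in IN@OMVs against OMVs and 0 in OMVs against Control. DESeq2 called 1 in IN@OMVs against Control and 0 in the others, and limma-voom 0. Casp1, the protease that cleaves pro-IL-1 beta, stood at 118, 80.4 and 87.4 CPM in IN@OMVs, 65.5, 72.0 and 86.2 CPM in OMVs and 70.3, 69.0 and 65.9 CPM in Control (0.48 ± 0.15, adjusted p = 0.0997). Nlrp3, the inflammasome sensor, differed by 0.06 ± 0.12 (adjusted p = 0.845).

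Below the IL-1 receptor, 2 of 17 signalling genes were lower in IN@OMVs than in Control, where 3.24% of all genes were called lower. Irak3 encodes a kinase relative that restrains MyD88 signalling: it measured 37.2, 25.3 and 29.5 CPM in IN@OMVs, 47.6, 52.3 and 59.7 CPM in OMVs and 57.2, 57.6 and 56.9 CPM in Control. The change was -0.90 ± 0.13 against Control (adjusted p = 0.00445) and -0.80 ± 0.13 against OMVs (adjusted p = 0.0149, lost without IN@OMVs 3, OMVs 2 or OMVs 3 and with only the 2 groups compared). Tab3, an adaptor of the kinase TAK1, had -0.37 ± 0.08 against Control (adjusted p = 0.025). That call ended with the libraries' number as a block (adjusted p = 0.0641), without IN@OMVs 2 or 3, and without any Control library. Ikbkg, the regulatory subunit of the IkB kinase, was higher against OMVs (0.32 ± 0.07, adjusted p = 0.0465), a call that 8 of the 9 single-library omissions ended, leaving out IN@OMVs 1 being the exception, and that also ended with RLE size factors, in limma-voom and with only the 2 groups compared. Myd88 itself differed by -0.10 ± 0.14 from Control (adjusted p = 0.768).

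On the IL-6 side, 1 of 12 receptor and signalling genes was called, beside 6.55% of all genes against Control and 2.85% against OMVs. This was Socs3, which STAT3 induces and which then blocks the IL-6 receptor. It lay at 271, 215 and 218 CPM in IN@OMVs, 420.3, 488 and 492 CPM in OMVs and 474, 445 and 424 CPM in Control, a change of -0.93 ± 0.10 against Control (adjusted p = 0.00103) and -0.99 ± 0.10 against OMVs (adjusted p = 0.0016). The receptor genes Il6ra (-0.27 ± 0.10, adjusted p = 0.184) and Il6st (-0.05 ± 0.10, adjusted p = 0.843) did not pass against Control, nor did Stat3 (-0.11 ± 0.09, adjusted p = 0.584). Of 12 other IL-6 family genes Osm was lower, at 58.4, 45.3 and 44.3 CPM in IN@OMVs, 90.9, 95.0 and 98.3 CPM in OMVs and 169, 129.7 and 121 CPM in Control. Its change was -1.50 ± 0.14 against Control (adjusted p = 0.000504) and -0.94 ± 0.14 against OMVs (adjusted p = 0.00888).

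Factors that act on Il1b and Il6 transcription or mRNA decay went both ways in IN@OMVs against Control, with 6 of 24 lower and 1 higher. Over all genes 3.24% were called lower and 6.55% in either direction. Junb, a subunit of AP-1, was lower against Control (-0.77 ± 0.09, adjusted p = 0.00113) and against OMVs (-0.59 ± 0.09, adjusted p = 0.0081). Nfkbia, the NF-kB inhibitor that NF-kB induces, was lower against both as well (-0.41 ± 0.08, adjusted p = 0.0232, and -0.64 ± 0.08, adjusted p = 0.00497). Fos (-0.90 ± 0.19, adjusted p = 0.0226) and the mRNA decay factor gene Zfp36 (-0.71 ± 0.15, adjusted p = 0.0257) fell against Control. These calls of Nfkbia, Fos and Zfp36 against Control ended with only the 2 groups compared and without IN@OMVs 2, IN@OMVs 3 or Control 2. Those of Fos and Zfp36 also ended without Control 1 or Control 3, and that of Zfp36 without OMVs 2.

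Against OMVs 5 of these 24 genes were lower and 0 higher, where 1.75% of all genes were called lower. Zc3h12a, which encodes the nuclease Regnase-1 that degrades Il6 mRNA, had -0.66 ± 0.10 (adjusted p = 0.00976, lost without OMVs 2 or OMVs 3). Hif1a, a regulator of Il1b transcription, had -0.64 ± 0.11 against OMVs (adjusted p = 0.016, lost without IN@OMVs 2, IN@OMVs 3, OMVs 2 or OMVs 3 and with only the 2 groups compared). The NF-kB subunit gene Nfkb2 was lower against OMVs (-0.36 ± 0.07, adjusted p = 0.0399), a call that ended with the libraries' number as a block (adjusted p = 0.0796). The call of Nfkb2 was not followed through the library omissions and other alternatives. Relb, another subunit gene, fell just short against OMVs (-0.33 ± 0.07, adjusted p = 0.053). Against Control, Nfkb2 (-0.14 ± 0.07, adjusted p = 0.364), the NF-kB subunit gene Rela (-0.14 ± 0.06, adjusted p = 0.257) and Cebpb (-0.24 ± 0.11, adjusted p = 0.287) did not pass.

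**Figure D5:**
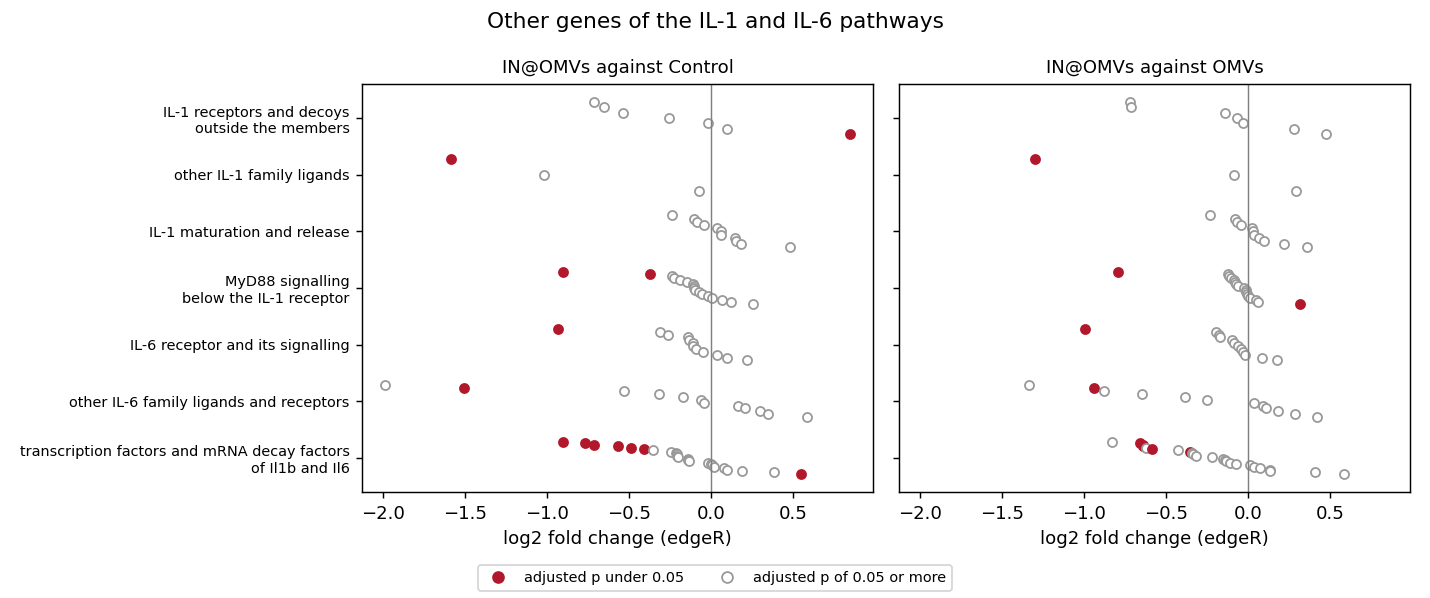
Log2 fold changes from edgeR of the other pathway genes, 1 point per gene, by list, in IN@OMVs against Control (left) and IN@OMVs against OMVs (right); filled points passed an adjusted p of 0.05. Called genes lie on the lower side except Il18bp and Irf8 on the left and Ikbkg on the right.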

How the data were processed

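RNA of 9 libraries of sorted tumour macrophages was analysed (IN@OMVs, OMVs and Control, 3 each). The values deposited by the authors are expected counts per gene, not normalised. Tools listed in the submitters' processing notes are RSEM, Bowtie2 and BWA (no version given), and builds listed there are mm9 and hg19, with no roles stated. Expected counts were rounded and tested with edgeR 4.0.16 (R 4.3.3): TMM scaling, filterByExpr (13090 genes kept), 1 mean per group, quasi-likelihood contrasts, two-sided, Benjamini-Hochberg adjustment over all genes tested, threshold 0.05. The common dispersion was 0.0172, with 6 residual degrees of freedom. Alternatives used limma 3.58.1, DESeq2 1.42.0, other scalings, no filter, omissions of libraries and a replicate block. Alternatives for the pathway counts and for named genes besides the 6 were chosen after seeing the data. The edgeR fit alone was tested on simulated counts, for the recovery of known fold changes.

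The 6 genes and the lists were chosen with earlier results of these data known. Named besides the 6 genes were up to 4 called genes with the smallest p per list and comparison, and the 3 genes nearest in pattern to each of the 6. Genes outside that rule are given as values for their role in the pathway. Listed symbols absent from the table were matched by RefSeq synonyms, which found 3. Promoter sequences are from RefSeq (GRCm38.p6); all 6 genes matched.

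Libraries of the same number deviated together from their group means in IN@OMVs and Control (correlations 0.443, 0.33 and 0.173) and in OMVs and Control (0.546, 0.412 and 0.124), so these comparisons were also fitted with the number as a block. Some libraries of different numbers correlated as much (IN@OMVs 2 with Control 3 at 0.353, IN@OMVs 3 with Control 2 at 0.319, OMVs 2 with Control 3 at 0.406), and number 1 alone was positive with its own number and negative with the others in both. In IN@OMVs and OMVs they did not (-0.0182, 0.581 and -0.477).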

Additional observations from a re-analysis of the deposited data

How the results depend on the processing

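The 6 genes had 18 fold changes, each recomputed under 17 alternatives. Of these 306 values, 278 kept direction and side of the threshold, 6 lost the call (all of Il1r2 in IN@OMVs against OMVs), 16 gained one and 6 turned sign. Il1a, Il1b and Il6 were called in every alternative for IN@OMVs against Control and against OMVs. The sign turned for OMVs against Control, which was never called there: Il1a ranged from -0.1099 to 0.1416 over single-library omissions (0.0937 without Control 1) and was 0.2447 without all 3 libraries numbered 1, and Il1b ranged from -0.0331 to 0.2393 (-0.0218 without OMVs 3 and -0.0305 without Control 2) and was 0.33 without all 3 libraries numbered 1 (adjusted p = 0.0635). Of the 6 genes, 1 was called in OMVs against Control by DESeq2, 2 without the libraries numbered 1 and 0 to 1 over single-library omissions.

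Counts over all genes moved more. For IN@OMVs against Control 858 genes became 519 with only the 2 groups compared, 1475 without the libraries numbered 1 and 393 to 1635 over single-library omissions. For IN@OMVs against OMVs 373 became 646 in DESeq2, 195 with 2 groups, 844 without the libraries numbered 1 and 180 to 786 over omissions. For OMVs against Control 55 became 207 in DESeq2, 36 in limma-voom, 115 with 2 groups, 20 with the replicate block, 313 without the libraries numbered 1 and 0 to 266 over omissions. Pathway genes called in IN@OMVs against Control (13) were 7 with 2 groups, 28 without the libraries numbered 1 and 6 to 26 over omissions. Against OMVs (10) they were 17 in DESeq2, 6 with 2 groups, 23 without the libraries numbered 1 and 4 to 20 over omissions. In OMVs against Control (0) they were 1 in DESeq2, 6 without the libraries numbered 1 and 0 to 2 over omissions. The cause was not tested. The replicate block changed no call of the 6 genes. In IN@OMVs against OMVs, where the numbers did not pair the libraries, it gave 306 calls. Il6 rests on 3 to 10 counts in each IN@OMVs library, which limits its fold change.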

Other observations

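Within the groups the 6 genes did not all vary together. Deviations of log2(CPM + 1) from the group means, over the 9 libraries, correlated at 0.864 for Il1b with Il1r2, 0.714 for Il1b with Il1a and 0.801 for Il1rn with Il6, but at -0.594 for Il1b with Il1rap and -0.672 for Il1r2 with Il1rap. Libraries Control 1, OMVs 3 and IN@OMVs 1 were the highest of their groups in both Il1b and Il1r2. The same held for summed neutrophil markers (1476, 1008 and 280.5 CPM) and summed monocyte markers (3062, 2307 and 1518 CPM). These are descriptions of 9 libraries that share 3 treatments.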
